A study of Mus musculus with 45 samples.

Results

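The genes described here are 9 liver genes of glucose output, glycolysis and the control of both: Pck1, G6pc, Fbp1, Tat, Ppargc1a, Foxo1, Irs2, Pfkfb3 and Pklr. They were chosen by name as entries of a deposited expression table of 24946 usable genes, and all 9 were found there. Whole-liver RNA of wild-type mice was sequenced in 45 libraries, in 12 groups of 3 or 4, defined by stage, diet label and sex label. At peak injury, libraries came from mice labelled ethanol (4 male, 4 female) and control (4 male, 4 female) after 6 wk on Lieber-DeCarli ethanol or control diet, liquid diets used to model alcohol feeding. At early resolution (ethanol 4 male and 3 female, control 4 male and 4 female), ethanol-labelled mice had returned to the control diet for 3 days, and at late resolution (ethanol 3 male and 3 female, control 4 male and 4 female) for 2 wk. An ethanol label at the resolution stages therefore means earlier ethanol feeding. All groups share the wild-type genotype, and the labels give no strain, age or feeding state at sampling. Nor do the labels tie each library of a group to an animal of its own, and the p-values below therefore cover the spread among libraries, which may be technical.

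The liver makes glucose from lactate, glycerol and amino acids during fasting and breaks glucose down after a meal. Pck1, Fbp1 and G6pc catalyse the steps of gluconeogenesis that bypass the irreversible steps of glycolysis, and Pklr and Pfkfb3 act on the glycolytic side. Glucagon, through cAMP, and glucocorticoids raise Pck1, G6pc and Tat transcription, with Foxo1 and Ppargc1a as regulators, whereas insulin, acting through Irs2 and other adaptors, lowers it.

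The labels and the sex-chromosome transcripts did not match. In all 21 ethanol-labelled libraries, male and female alike, Xist, the transcript that silences an X chromosome, lay between 13.7 and 51.8 TPM (length-scaled transcript units that sum to the same total in each library), and the Y-linked Eif2s3y stayed at or below 0.0386 TPM. In 23 of 24 control-labelled libraries Xist was at most 0.349 TPM, and Eif2s3y lay between 7.83 and 12.7 TPM. The exception was late control female 1, with 39.5 TPM of Xist and 0 TPM of Eif2s3y. Hence an ethanol-control difference below and a difference between livers with and without Xist cannot be told apart, except through that library, and "male" and "female" are the sex labels only. The 4 skeletal muscle markers summed to 5353 TPM in peak ethanol female 1 and to at most 3.49 TPM in the others. In bulk tissue, fewer cells of a type and less RNA per cell cannot be told apart. Sequencing depth cannot be read from TPM, which leaves the counting error of each value unknown. Between 15109 and 16419 genes were above 0 per library.

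The levels of the 9 genes, which TPM make comparable per length, differed widely. Median levels over the 45 libraries were 2688 TPM for Pck1, 1957 for Fbp1, 1623 for Tat, 640.0 for G6pc and 265 for Pklr. The regulators and Pfkfb3 were far lower, with medians of 7.40 TPM for Pfkfb3, 2.09 for Foxo1, 0.934 for Ppargc1a and 0.884 for Irs2. Over the libraries, each gene overlapped its neighbours in this order except at 1 step, since the lowest Pklr value, 67.8 TPM, lay above the highest Pfkfb3 value, 38.8 TPM.

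**Figure D1:**
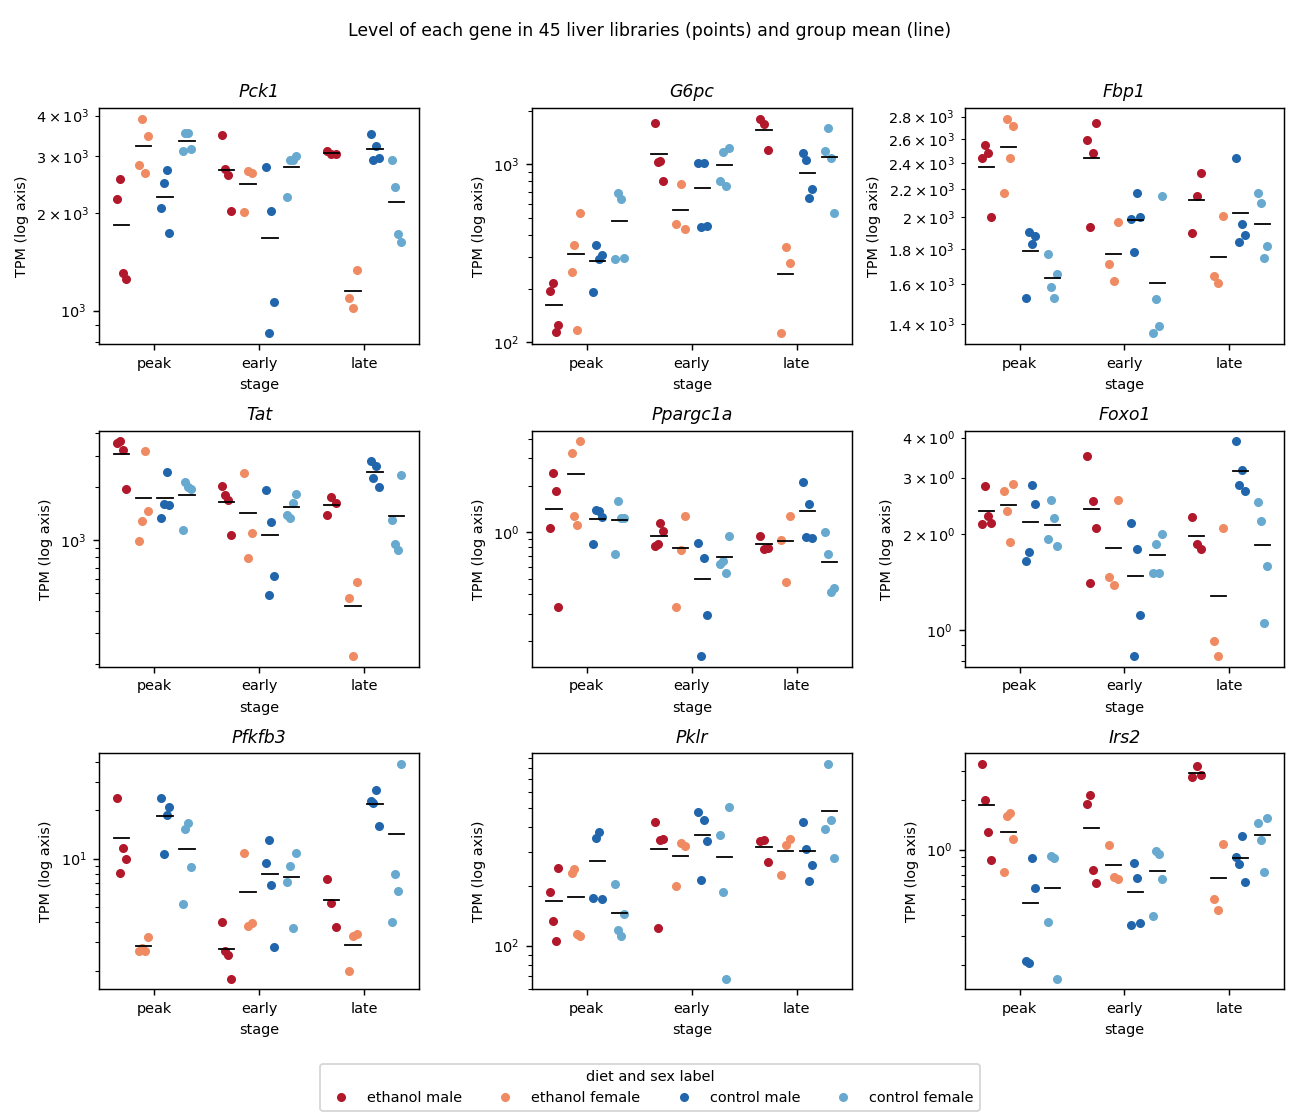
Levels of the 9 genes in the 45 libraries. Each point is 1 library and each line a group mean, in TPM on a log axis, by stage (peak, early, late) and label. Late G6pc lay between 112 and 340.4 TPM in ethanol females, against 534 to 1607 TPM in control females.

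Differences were tested with limma on log2(TPM + 0.5), with Benjamini-Hochberg adjustment over 11244 genes whose mean reached 0.5 TPM, a filter that all 9 passed. A gene was called at an adjusted p under 0.05. Differences are ethanol minus control, averaged over the sex labels, or male minus female, averaged over the diet labels, in log2 units ± SE. All differences given within a single sex label or diet label were added after seeing the data. Counts such as 7 of 8 give the libraries beyond the log2 mean of the group that differs in that label alone, so that single libraries of the groups may still overlap. The pseudocount of 0.5 understates changes of genes near 1 TPM such as Irs2 and Ppargc1a. By diet label, 4 of the 9 were called at peak, 2 higher and 2 lower, where 27.1% of all genes tested were called, 17.3% higher and 9.81% lower. None was called at the early stage, against 16.7% of all genes, although 2 of them, Fbp1 and Pfkfb3, had an unadjusted p under 0.05 (29.8% of all genes). At the late stage 2 were called, both lower, against 12.8% of all genes called and 3.98% called lower. By sex label, 3 were called at peak, against 51% of all genes, 1 at the early stage, against 0.596%, and 4 at the late stage, all higher in males, against 3.25% called and 2.46% called higher. For G6pc that late difference averaged ethanol libraries, where the male mean was higher, and control libraries, where it was lower. The median of the 9 differences was 0.13, 0.26 and -0.46 by diet label at the 3 stages in order, beside 0.05, 0.13 and 0.05 over all genes. By sex label it was 0.02, 0.05 and 0.65, beside -0.29, 0.03 and 0.04.

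Because the median of all genes moved by -0.29 with the sex label at peak and by 0.13 with the diet label at the early stage, values rescaled by the median of ratios between libraries are given beside the results they touch. After that scaling 4, 0 and 5 of the genes were called by diet label at the 3 stages, against 35.7%, 16.7% and 21.1% of all genes. By sex label the counts became 4, 1 and 4, against 31.6%, 1.83% and 9.55%.

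**Figure D2:**
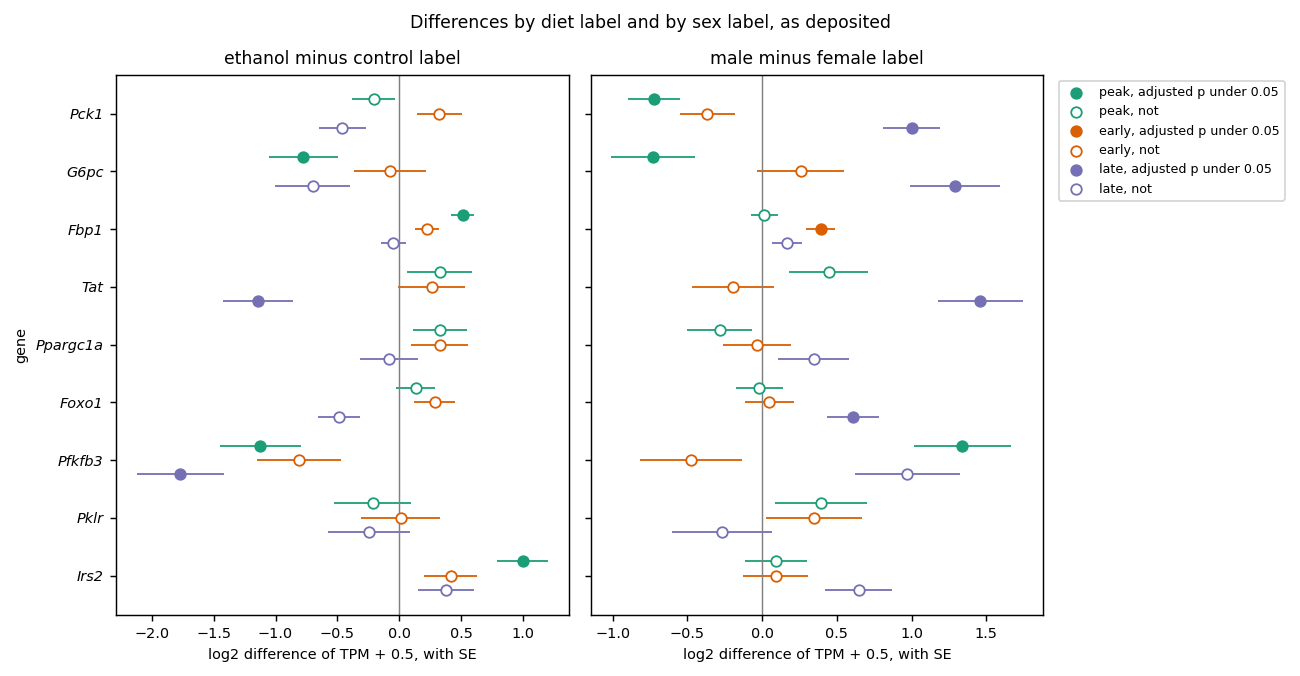
Log2 differences of the 9 genes by diet label (ethanol minus control) and by sex label (male minus female) at each stage. Points are limma estimates and bars are SE, with filled points for an adjusted p under 0.05. Pfkfb3 lay at -1.77 by diet label at the late stage, and Pck1 at 1.00 by sex label.

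Pck1 encodes cytosolic phosphoenolpyruvate carboxykinase, which commits oxaloacetate to glucose synthesis. It is annotated on the plus strand of chromosome 2 (GENCODE M21 on mm10, chr2:173153048-173159273). Its promoter and that of G6pc are printed because the 2 genes varied together within groups. The 250 bases before the RefSeq start (GRCm38.p6, chr2:173152823-173153072) hold the core of a cAMP response element, TGACG on the opposite strand, at bases 90 to 86 before the start, in capitals.
Pck1: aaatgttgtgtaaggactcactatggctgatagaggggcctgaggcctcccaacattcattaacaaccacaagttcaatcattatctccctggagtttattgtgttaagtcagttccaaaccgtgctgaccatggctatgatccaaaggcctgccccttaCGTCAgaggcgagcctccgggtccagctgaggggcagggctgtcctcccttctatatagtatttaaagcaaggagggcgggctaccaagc
TGACG occurred on either strand in 17.8% of 32851 promoter windows of this length.

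The sex-label difference of Pck1 was in opposite directions at peak and late. At peak, Pck1 measured 2211, 2553, 1304 and 1256 TPM in ethanol males and 2821, 3908, 2664 and 3450.5 TPM in ethanol females. It measured 2076, 2473, 2711 and 1734 TPM in control males and 3107, 3526, 3525 and 3159 TPM in control females. Every male library lay below every female library of the same diet label. The difference was -0.72 ± 0.18 (adjusted p = 0.0013, 8 of 8 male libraries lower). After median-of-ratios scaling it was -0.37 with an adjusted p of 0.053, so the call depends on the scaling.

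Late Pck1 measured 3105, 3039 and 3039.6 TPM in ethanol males and 1096, 1016 and 1339 TPM in ethanol females. In control males it measured 3504, 2926, 3218 and 2961 TPM, and in control females 2913, 2411, 1726 and 1629 TPM. All 7 male libraries lay above all 7 female libraries. The difference was 1.00 ± 0.19 (adjusted p = 0.005), and 1.08 (adjusted p = 0.0019) without late control female 1. The change of the sex-label difference from peak to late was 1.72 ± 0.26 (adjusted p = 0.00011). By diet label, averaged over the sex labels, no difference of Pck1 was called at any stage as deposited; the late one was -0.46 as deposited and -0.55 ± 0.16 (adjusted p = 0.015) after median-of-ratios scaling. Without early control male 1 the early diet-label difference, 0.32 and not called, was 0.47 (adjusted p = 0.047). With every library kept, the early diet-label difference of Pck1 within males was 0.83 (adjusted p = 0.031) as deposited. After median-of-ratios scaling no member was called in that within-male comparison, so this call depends on the scaling. Of all genes 8.39% were called there as deposited and 8.4% after scaling. Pck1 spread widely in early control males, with 2772, 850.5, 2034 and 1066 TPM, against 3484, 2737, 2615 and 2032 TPM in early ethanol males.

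G6pc encodes the catalytic subunit of glucose-6-phosphatase, the last step before glucose leaves the cell. It is annotated on the plus strand of chromosome 11 (chr11:101367561-101377903, GENCODE M21). The window before its RefSeq start (GRCm38.p6, chr11:101367466-101367715, plus strand) holds an insulin response sequence word, CAAAACA on the opposite strand, at bases 174 to 168, and a TATA box word, TATAAA, at bases 29 to 24, both in capitals.
G6pc: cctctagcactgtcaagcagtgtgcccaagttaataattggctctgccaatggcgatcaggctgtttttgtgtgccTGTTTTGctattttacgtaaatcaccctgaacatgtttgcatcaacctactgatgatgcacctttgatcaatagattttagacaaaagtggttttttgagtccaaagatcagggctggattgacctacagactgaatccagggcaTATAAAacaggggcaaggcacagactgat
CAAAACA occurred in 5.56% and TATAAA in 12.4% of the 32851 windows.

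Late G6pc differed by diet label in opposite directions in males and females. It measured 1802, 1693 and 1206 TPM in ethanol males, all above the 1156, 1056, 649 and 725 TPM of control males. In ethanol females it measured 112, 340.4 and 277 TPM, all below the 1186, 1607, 1084 and 534 TPM of control females. The ethanol-control difference of males minus that of females was 3.05 ± 0.61 (adjusted p = 0.035), and after median-of-ratios scaling 3.21 ± 0.52 (adjusted p = 0.0044). With the late libraries alone it missed the threshold (3.05, adjusted p = 0.13). G6pc was the 1 member called for this difference, against 0.0445% of all genes. Within females the late ethanol-control difference was -2.22 ± 0.43 (adjusted p = 0.0017, lower in 3 of 3), and within males 0.83 (adjusted p = 0.26, higher in 3 of 3); these within-label values were chosen after seeing the data. The interaction call was also lost without any 1 of 9 late libraries, with differences of 2.56 to 3.23 and adjusted p between 0.055 and 0.27, the last without late ethanol female 1. Without late control female 1 it was 2.98 (adjusted p = 0.063). The other 8 libraries were late ethanol males 1, 2 and 3, late ethanol females 1 and 3, late control males 3 and 4 and late control female 2.

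The other interactions of the 9 genes were not called. At peak none had an adjusted or unadjusted p under 0.05 by limma, where 0.16% of all genes were called and 13.3% had an unadjusted p under 0.05. At the early stage 0 were called, against 0.00889% of all genes, and 2, Pck1 and G6pc, had an unadjusted p under 0.05 (4.59% of all genes). The late Irs2 interaction was 1.89 ± 0.45 (adjusted p = 0.15), and that of Pck1 was 0.85 ± 0.38 (adjusted p = 0.56).

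At peak G6pc lay between 114 and 691 TPM. It measured 194, 216, 114 and 125 TPM in ethanol males and 246, 351, 117 and 532 TPM in ethanol females, against 190.4, 352, 295 and 310.0 TPM in control males and 294, 691, 640.0 and 298 TPM in control females. The diet-label difference was -0.77 ± 0.28 (adjusted p = 0.037, lower in 7 of 8), with overlapping groups. With no filter the adjusted p was 0.055, and with the peak libraries alone 0.054. The call was also lost without any 1 of 9 peak libraries, with differences of -0.57 to -0.76 and adjusted p up to 0.12 (ethanol males 3 and 4, ethanol females 1 and 3, control males 2, 3 and 4, control females 2 and 3). The sex-label difference at peak was -0.73 ± 0.28 (adjusted p = 0.03) as deposited and -0.38 (adjusted p = 0.23) after median-of-ratios scaling. It was -0.55 (adjusted p = 0.11) after quantile normalization, and -0.73 (adjusted p = 0.05, just over the threshold) with no filter. That call too was lost without any 1 of 7 libraries, with differences of -0.57 to -0.68 and adjusted p up to 0.089 (ethanol males 3 and 4, ethanol females 2 and 4, control male 1, control females 2 and 3). The late sex-label difference was 1.29 ± 0.30 (adjusted p = 0.02, higher in 5 of 7) and 1.32 (adjusted p = 0.019) without late control female 1. This is an average over unlike diet labels. The late mean was 1567 TPM in ethanol males against 243 TPM in ethanol females. In late control males it was 897 TPM, below the 1102 TPM of control females. The late sex-label difference missed the threshold with the late libraries alone (adjusted p = 0.059) and without late control female 3 (1.30, adjusted p = 0.051), late ethanol female 1 (1.05, adjusted p = 0.12) or late ethanol male 1 (1.23, adjusted p = 0.061). Averaged over the sex labels, the late diet-label difference was -0.70 and not called, against -0.78 (adjusted p = 0.03) after median-of-ratios scaling and -0.78 (adjusted p = 0.047) after quantile normalization.

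Of the 9 genes, G6pc had the largest differences between stages as deposited. At the early stage it measured 1708, 1024, 1042 and 804 TPM in ethanol males and 459, 770.1 and 433 TPM in ethanol females. Control males held 1015, 442, 1018 and 449 TPM and control females 801, 1179.6, 750.2 and 1231 TPM. Averaged over the 4 label groups of a stage, the level was higher by 1.55 ± 0.20 at the early stage (adjusted p = 4.4e-06) and by 1.46 ± 0.21 at the late stage (adjusted p = 3.3e-05) than at peak. Stage and day of sampling cannot be told apart.

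Fbp1 encodes fructose-1,6-bisphosphatase, which opposes phosphofructokinase, and is annotated on the minus strand of chromosome 13 (chr13:62864753-62888282). At peak it measured 2436, 2550.1, 2481 and 2000.3 TPM in ethanol males and 2172, 2779, 2435 and 2717 TPM in ethanol females. The control libraries were lower, with 1530.2, 1907, 1828 and 1878 TPM in control males and 1772, 1587, 1526 and 1656 TPM in control females. All 8 ethanol libraries lay above all 8 control libraries. The difference was 0.51 ± 0.09 (adjusted p = 7.5e-05), and it was called within males (0.41, adjusted p = 0.023) and within females (0.62, adjusted p = 0.0021). Leaving out any 1 library gave 0.48 to 0.55. By sex label the peak difference was 0.02 as deposited, not called, and 0.37 (adjusted p = 0.0035) after median-of-ratios scaling.

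The diet-label difference of Fbp1 was not called later as deposited. Early, at 0.22, it passed the threshold without early control female 4 (0.30, adjusted p = 0.019) or early ethanol male 2 (0.28, adjusted p = 0.046). Late Fbp1 measured 1896, 2145 and 2322 TPM in ethanol males and 1646, 1605 and 2007 TPM in ethanol females, against 2437, 1845, 1957 and 1884 TPM in control males and 2172, 2099, 1747 and 1816 TPM in control females. These groups overlapped. The change of the diet-label difference from peak to late was -0.56 ± 0.14 (adjusted p = 0.02), and -0.54 (adjusted p = 0.027) without late control female 1. At the early stage the sex-label difference was 0.39 ± 0.10 (adjusted p = 0.045, 8 of 8 males above the female mean of their diet label). Early Fbp1 measured 2587, 1939.9, 2483 and 2737 TPM in ethanol males and 1712, 1619.9 and 1971 TPM in ethanol females, and 1988, 1782, 2170.0 and 2001 TPM in control males and 1358, 1521, 1392 and 2149 TPM in control females. The groups overlapped. The adjusted p was 0.062 with no filter, 0.088 after quantile normalization and 0.25 with the early libraries alone, and the call was lost without any 1 of 22 libraries, with differences of 0.36 to 0.39 and adjusted p up to 0.19, the last without early ethanol female 2.

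Tat encodes tyrosine aminotransferase, the first step of tyrosine breakdown and a classic glucocorticoid-responsive liver gene. It is annotated on the plus strand of chromosome 8 (chr8:109990437-109999803). In late libraries it measured 1388, 1744 and 1631 TPM in ethanol males, against 2801, 2257, 2632 and 1984 TPM in control males. In ethanol females it measured 474, 222 and 584 TPM, against 1304, 954, 885 and 2344 TPM in control females. Within each sex label all ethanol libraries lay below all control libraries. The diet-label difference was -1.14 ± 0.28 (adjusted p = 0.0061, lower in 6 of 6) and -1.14 (adjusted p = 0.0064) without late control female 1. The sex-label difference was 1.46 ± 0.28 (adjusted p = 0.0062), and 1.47 (adjusted p = 0.0066) without that library. All 7 males lay above the female mean of their diet label, but control female 4, at 2344 TPM, lay above control males 2 and 4.

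At peak the diet-label difference of Tat was 0.33 and was not called. It measured 3522, 3607, 3231 and 1952 TPM in ethanol males and 985, 1290.1, 3184 and 1469 TPM in ethanol females, against 1337, 1604, 2429 and 1588 TPM in control males and 1145, 2121, 1997 and 1944 TPM in control females. The ethanol males were mostly high, and the groups overlapped. The sex-label difference at peak was 0.45 as deposited, not called, and 0.80 ± 0.29 (adjusted p = 0.033) after median-of-ratios scaling. Without peak ethanol female 3 it was 0.62 (adjusted p = 0.041) as deposited. The change of the diet-label difference from peak to late was -1.47 ± 0.39 (adjusted p = 0.028). At the early stage Tat spanned 1071 to 2023 TPM in ethanol males and 492 to 1922 TPM in control males, and neither label difference was called.

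The 3 regulators were low, with single libraries between 0.160 TPM (Ppargc1a) and 3.89 TPM (Foxo1). Foxo1 is the transcription factor that insulin signalling excludes from the nucleus, and is annotated on the plus strand of chromosome 3 (chr3:52268336-52353221). In late libraries it measured 2.26, 1.86 and 1.79 TPM in ethanol males, all below the 3.89, 2.84, 3.17 and 2.72 TPM of control males. In ethanol females it measured 0.927, 0.830 and 2.08 TPM, overlapping the 2.53, 2.19, 1.05 and 1.59 TPM of control females. The diet-label difference was not called as deposited (-0.49), was called after median-of-ratios scaling (-0.55 ± 0.13, adjusted p = 0.0029), and passed the threshold as deposited without any 1 of 7 libraries. These were late ethanol female 3 (-0.64, adjusted p = 0.012), late control female 3 (-0.58, adjusted p = 0.022), and early ethanol males 1 and 2, early ethanol female 3 and early control males 1 and 2 (-0.49, adjusted p up to 0.048). The sex-label difference was 0.61 ± 0.17 (adjusted p = 0.043), and 0.68 (adjusted p = 0.028) without late control female 1. All 7 males lay above the female mean of their diet label, but ethanol males 2 and 3 lay below ethanol female 3. With no filter the adjusted p was 0.064, and with the late libraries alone 0.11. That call was also lost without any 1 of 10 late libraries, namely the 7 males, ethanol females 1 and 2 and control female 3, with differences of 0.52 to 0.64 and adjusted p up to 0.19. At peak and early Foxo1 was not called by either label, with 1.65 to 2.86 TPM over all peak libraries. A Foxo1 antisense gene, Gm20402, shares exon bases with it on the opposite strand, and whether counting used strand is not stated in the sources used here.

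Ppargc1a encodes the coactivator PGC-1 alpha and is annotated on the minus strand of chromosome 5 (chr5:51454250-51567726). It was called by neither label at any stage. Its level at peak was 1.07, 2.40, 1.85 and 0.333 TPM in ethanol males and 3.23, 1.28, 1.12 and 3.84 TPM in ethanol females, against 0.845, 1.40, 1.38 and 1.25 TPM in control males and 0.728, 1.59, 1.24 and 1.24 TPM in control females. At peak the SD was 0.903 TPM in ethanol males and 1.38 TPM in ethanol females, against 0.257 TPM in control males and 0.356 TPM in control females. In males the order was reversed early (ethanol 0.153, control 0.325 TPM) and late (ethanol 0.0906, control 0.568 TPM). In females it was kept early (ethanol 0.469, control 0.179 TPM) and late (ethanol 0.398, control 0.278 TPM). These spreads were not tested. Early libraries lay between 0.160 and 1.27 TPM. Relative to peak the level was lower by stage, at -0.67 (adjusted p = 0.0028) early and -0.45 (adjusted p = 0.039) late.

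Irs2, an adaptor between the insulin receptor and its kinase cascade, is annotated on the minus strand of chromosome 8 (chr8:10984681-11008458). Its promoter is printed because Irs2 was higher in ethanol libraries at peak. The 250 bases before the RefSeq start (GRCm38.p6, chr8:11008930-11009179, minus strand) hold an E-box, CACGTG, at bases 44 to 39 and CAAAACA on the opposite strand at bases 37 to 31, in capitals.
Irs2: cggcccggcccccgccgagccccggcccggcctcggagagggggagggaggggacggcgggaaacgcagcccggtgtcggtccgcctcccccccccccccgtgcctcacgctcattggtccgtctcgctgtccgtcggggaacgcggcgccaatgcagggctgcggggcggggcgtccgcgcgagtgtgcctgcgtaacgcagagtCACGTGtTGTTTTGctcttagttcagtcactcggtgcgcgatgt
CACGTG occurred in 6.02% of the 32851 windows. At peak Irs2 measured 3.31, 1.99, 1.28 and 0.869 TPM in ethanol males and 0.728, 1.59, 1.68 and 1.16 TPM in ethanol females. In control males it measured 0.211, 0.205, 0.890 and 0.582 TPM, and in control females 0.365, 0.916, 0.884 and 0.164 TPM. The difference was 1.00 ± 0.21 (adjusted p = 0.00044, higher in 8 of 8), although the lowest ethanol libraries overlapped the highest control ones.

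Late in resolution, the 3 ethanol males lay above all other late libraries in Irs2. It measured 2.75, 3.24 and 2.83 TPM in ethanol males, above the control males at 0.896, 0.813, 1.21 and 0.639 TPM. In ethanol females it measured 0.499, 0.430 and 1.09 TPM, overlapping 1.45, 1.15, 0.727 and 1.56 TPM in control females. The within-male difference was 1.32 ± 0.32 (adjusted p = 0.0071), while the difference between the sex labels in this effect was not called, as given above. The late diet-label difference over both sex labels was 0.38 and not called. The late sex-label difference was 0.65, not called, and passed the threshold without late ethanol female 3 (0.77, adjusted p = 0.026). At the early stage Irs2 measured 1.90, 2.14, 0.752 and 0.627 TPM in ethanol males and 1.06, 0.684 and 0.660 TPM in ethanol females, against 0.347 to 0.826 TPM in control males and 0.394 to 0.979 TPM in control females. These overlapped, and neither the diet-label difference, 0.42, nor the sex-label difference, 0.09, was called. Irs2 shares exon bases with 9530052E02Rik on the opposite strand.

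Pfkfb3 encodes a bifunctional enzyme that makes fructose-2,6-bisphosphate, an activator of glycolysis and inhibitor of Fbp1, and is annotated on the minus strand of chromosome 2 (chr2:11471433-11554077). Its promoter is shown because it was lower in ethanol libraries at both peak and late. RefSeq gives it 2 starts, and the window of the first (GRCm38.p6, chr2:11553930-11554179, minus strand) holds TGACG at bases 112 to 108 and 62 to 58, in capitals.
Pfkfb3: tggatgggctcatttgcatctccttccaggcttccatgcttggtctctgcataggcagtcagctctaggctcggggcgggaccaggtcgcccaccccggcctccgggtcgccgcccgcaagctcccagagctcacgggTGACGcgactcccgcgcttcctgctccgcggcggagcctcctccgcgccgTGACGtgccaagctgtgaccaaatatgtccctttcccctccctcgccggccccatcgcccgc
All 9 genes matched RefSeq promoters, 11 windows in all, and those of Fbp1, Tat and Foxo1 held none of the 6 words searched on both strands, namely the 4 given so far and 2 more. The FOXO binding word GTAAACA was in none of the 11 windows and in 3.17% of the 32851. The other form of the insulin response sequence, CAAAATA, was in none either, and in 3.95% of the 32851. A word match or its absence describes these letters only.

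At peak Pfkfb3 measured 23.9, 8.10, 11.6 and 9.98 TPM in ethanol males and 2.65, 2.75, 2.66 and 3.25 TPM in ethanol females. It measured 23.8, 10.7, 18.7 and 21.0 TPM in control males and 5.18, 15.3, 16.7 and 8.88 TPM in control females. The ethanol females were all below the control females, whereas males of the 2 diet labels overlapped. The diet-label difference was -1.12 ± 0.33 (adjusted p = 0.0095, lower in 7 of 8), and within females it was -1.73 ± 0.46 (adjusted p = 0.017). The sex-label difference was 1.34 ± 0.33 (adjusted p = 0.0014) as deposited and 1.67 ± 0.36 (adjusted p = 0.00083) after median-of-ratios scaling. All 8 males lay above the female mean of their diet label, but control male 2, at 10.7 TPM, lay below control females 2 and 3.

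Late Pfkfb3 measured 7.40, 5.29 and 3.73 TPM in ethanol males, against 23.0, 22.1, 26.7 and 16 TPM in control males. It measured 1.99, 3.27 and 3.36 TPM in ethanol females, against 4.01, 8.0, 6.25 and 38.8 TPM in control females. Within each sex label the ethanol libraries lay below all control libraries. The diet-label difference was -1.77 ± 0.35 (adjusted p = 0.00066, lower in 6 of 6), -1.96 (adjusted p = 9.1e-05) without late control female 1, and -1.44 (adjusted p = 0.0016) without late control female 4, the library at 38.8 TPM. The sex-label difference was 0.97, not called, and passed the threshold without late control female 4 (1.30, adjusted p = 0.013). At the early stage Pfkfb3 measured 4.01, 2.65, 2.51 and 1.78 TPM in ethanol males and 10.8, 3.77 and 3.97 TPM in ethanol females, against 9.37, 13.1, 6.85 and 2.80 TPM in control males and 7.11, 8.99, 3.68 and 10.8 TPM in control females. These overlapped, and the diet-label difference of -0.81 was not called, but passed the threshold without early ethanol female 1 (-1.04, adjusted p = 0.029), early control male 4 (-1.01, adjusted p = 0.043) or late control female 4 (-0.81, adjusted p = 0.040). It also passed with the replicate number as a block. Within early males that limma fit, added after seeing the data, gave -1.27 ± 0.29 (adjusted p = 0.01), and within early females -0.16, not called.

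Pklr encodes the liver pyruvate kinase, which carbohydrate intake induces through ChREBP, and is annotated on the plus strand of chromosome 3 (chr3:89136142-89146784). It measured 188, 133, 106 and 248 TPM in peak ethanol males and 234, 246, 114 and 112 TPM in peak ethanol females, against 174, 350.1, 379 and 172 TPM in peak control males and 206, 120.4, 112 and 145 TPM in peak control females. These overlapped, and no label difference of Pklr was called as deposited at any stage. The peak sex-label difference was called after median-of-ratios scaling, at 0.74 ± 0.27 (adjusted p = 0.035). By stage its level was higher than at peak, by 0.67 ± 0.22 early (adjusted p = 0.027) and by 0.92 ± 0.23 late (adjusted p = 0.0049), the first missing the threshold after scaling. Pklr shares exon bases with Hcn3 on the opposite strand.

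Levels by stage were called for 5 genes early, where 23.5% of all genes were called, and for 4 late, where 23.2% were. Early against peak, G6pc and Pklr rose and Tat, Ppargc1a and Pfkfb3 fell, Tat by 0.56 and Pfkfb3 by 0.74 on the log2 scale. Late against peak, G6pc and Pklr rose and Tat and Ppargc1a fell, Tat by 0.72 on that scale. After median-of-ratios scaling 7 were called early and 7 late, against 24.3% and 17.7% of all genes. The median of all genes had moved by 0.12 and 0.14 as deposited. Control-labelled as well as ethanol-labelled mice enter these levels at each stage, and stage and day of sampling cannot be told apart. The early count was 2 without early ethanol female 2 or 3.

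The label differences themselves moved between stages for some genes. From peak to early the diet-label difference changed for none of the 9, against 0% of all genes called, with 2, Pck1 and Fbp1, at an unadjusted p under 0.05 (16.7% of all genes). From peak to late it changed for 2, Fbp1 and Tat, against 3.98% of all genes. The sex-label difference changed for 2 from peak to early, against 31.9% of all genes, and for 4 from peak to late, against 36.5%. Pfkfb3 changed by -1.82 ± 0.47 from peak to early (adjusted p = 0.0057). Fbp1 changed by 0.38 in that comparison (adjusted p = 0.031) and by -0.00 (adjusted p = 0.99) after median-of-ratios scaling. From peak to late the change was 2.02 ± 0.41 for G6pc (adjusted p = 0.0011), beside Pck1 above. It was 1.01 for Tat (adjusted p = 0.039) and 0.63 for Foxo1 (adjusted p = 0.035), which were 0.61 (adjusted p = 0.3) and 0.29 (adjusted p = 0.23) after scaling. Leaving out 1 library gave 0 to 3 members for the diet-label change from peak to late, and the count moved without peak ethanol female 3, peak control male 1, late ethanol females 1 or 2, late control male 3 or late control female 4. For the sex-label change from peak to early it gave 1 to 3, and the count moved without peak ethanol male 4, peak ethanol female 2, peak control male 1, early ethanol males 1 or 4, early ethanol female 1, early control male 3 or early control females 1 or 3. For that from peak to late it gave 2 to 4, and moved without peak control males 1 or 2, peak control female 2, late ethanol female 2, late control male 1 or late control female 3.

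Sex-label differences were also taken within each diet label at the late stage. Within the ethanol libraries, male minus female was 2.81 for G6pc (adjusted p = 0.0015), 1.42 for Pck1 (adjusted p = 0.014), 2.00 for Tat (adjusted p = 0.024) and 1.59 for Irs2 (adjusted p = 0.024), in a comparison where 0.507% of all genes were called. Within the late control libraries 0 of the 9 were called by limma, where 0.934% of all genes were, and 5 had an unadjusted p under 0.05 (22.8% of all genes). After median-of-ratios scaling 4 of the 9 were called within the ethanol libraries (0.756% of all genes). Within the control libraries 1 was then called (4.33% of all genes). Of the 4 genes named here, G6pc was the only 1 whose interaction was called, so the others are not shown to differ between diet labels. These within-label values were chosen after seeing the data.

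How the genes varied together from library to library was measured within groups. Of 36 pairs, 11 correlations of deviations from the group mean passed an adjusted permutation p of 0.05 over the 45 libraries, all positive, and 4 after median-of-ratios scaling, all positive. The values of a library share 1 TPM total, and the pairs called differed by scaling. The median r of the 36 pairs was 0.30 as deposited and 0.17 after scaling. Within-group correlations of other genes were not measured, so 11 of 36 cannot be set against a share over all genes. The Ppargc1a and Foxo1 pair was called both ways, with Pearson r = 0.64 and Spearman rho = 0.70 as deposited (permutation p = 1e-05, the smallest that 100000 permutations can give, adjusted p = 0.00036) and r = 0.67 without the 2 libraries farthest in Ppargc1a. After scaling r was 0.51 and rho 0.60 (permutation p = 0.00012, adjusted p = 0.0043). The Tat and Irs2 pair was also called both ways, with r = 0.47 and rho = 0.52 as deposited (permutation p = 0.00251, adjusted p = 0.015, 0.53 without 2 libraries) and r = 0.54 after scaling (adjusted permutation p = 0.0096). So was the Pfkfb3 and Irs2 pair, with r = 0.43 and rho = 0.50 as deposited (permutation p = 0.00564, adjusted p = 0.023, 0.43 without 2 libraries) and r = 0.52 after scaling (adjusted permutation p = 0.012). Pck1 and G6pc had r = 0.62 and rho = 0.69 as deposited (permutation p = 0.0001, adjusted p = 0.0013, 0.61 without 2 libraries), and were not called after scaling. Pck1 and Tat were called after scaling alone, with r = 0.52 and rho = 0.59 (permutation p = 0.00037, adjusted p = 0.0067, 0.43 without 2 libraries).

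**Figure D3:**
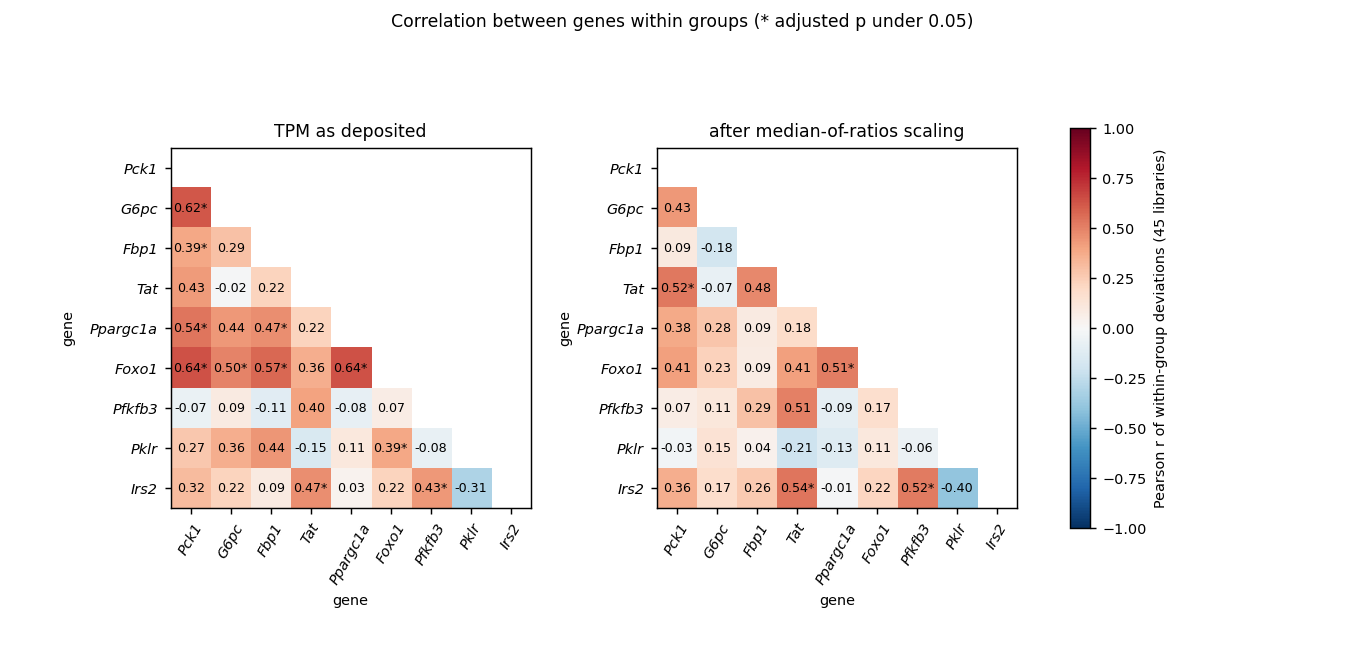
Pearson r between pairs of the 9 genes, over 45 libraries, of deviations from the mean of each group in log2(TPM + 0.5). The left panel is as deposited, where r reached 0.64, and the right panel is after median-of-ratios scaling, where it reached 0.54.

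Over all libraries, group differences included, the genes most like each member by Pearson r of log2(TPM + 0.5) over 45 libraries are given as a description. For Pck1 they were Noct (0.80), Lpin2 (0.78) and Klf15 (0.76), and for G6pc Lztr1 (0.77), Acot11 (0.75) and Lipg (0.74). Those of Fbp1 were Slc25a3 (0.77), Acad10 (0.77) and Pgk1 (0.76), and those of Tat Slc25a51 (0.87), Sdc4 (0.83) and Ell2 (0.83). Ppargc1a was closest to Bag2 (0.80), Mknk2 (0.78) and Pfkl (0.76), and Foxo1 to Arhgef3 (0.86), Mkl2 (0.84) and Slc7a2 (0.83). Pfkfb3 was closest to Tmc7 (0.84), Egfr (0.75) and Carmil1 (0.75), and Irs2 to Zfp36l1 (0.82), Rgs1 (0.76) and Sik1 (0.76). The nearest to Pklr was Pygl (0.89), the liver glycogen phosphorylase, then Ttc25 (0.86) and Ttc23 (0.85).

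The other genes of the pathway were counted in 7 lists, as deposited and with median-of-ratios scaling where that differs. By diet label at peak, enzymes and carriers of gluconeogenesis had 2 of 20 called higher and 2 lower (1 and 5 after scaling). The enzymes of glycolysis had 4 of 17 higher and 0 lower (4 and 1 after scaling), the list of glycolysis control 4 of 13 higher and 1 lower (4 and 3), and the insulin signalling list 8 of 22 higher and 0 lower (8 and 2). Over all genes 17.3% were called higher and 9.81% lower as deposited, and 15% and 20.7% after scaling. Glucogenic amino acid enzymes had 2 of 17 higher and 0 lower (2 and 2), transcription regulators 4 of 23 higher and 2 lower (3 and 5), and glycogen genes 1 of 14 higher and 1 lower (1 and 5). The medians of the first 4 lists were 0.04, 0.24, 0.24 and 0.16, beside 0.05 over all genes. The liver bifunctional enzyme gene Pfkfb1, of the same family as Pfkfb3, fell by 1.22 on the log2 scale (adjusted p = 6.3e-09). The pyruvate dehydrogenase kinase Pdk4 rose by 2.29 (adjusted p = 2.7e-05), by 1.95 without peak ethanol female 1. The glycerol 3-phosphate dehydrogenase Gpd1 fell by 0.90 (adjusted p = 3e-04), and the adaptor Grb10, which restrains insulin receptor signalling, rose by 0.91 (adjusted p = 2.7e-05). Hexokinase Hk1 rose by 0.69 (adjusted p = 0.00018) and pyruvate kinase Pkm by 0.95 (adjusted p = 0.0043), by 0.60 without peak ethanol female 1.

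By diet label at the early and late stages the mitochondrial pyruvate carrier and Pck2 stood in the same direction. Early, Mpc1 rose by 1.20 ± 0.17 (adjusted p = 3.2e-06), Mpc2 by 1.03 (adjusted p = 9.6e-06) and Pck2, the mitochondrial carboxykinase, by 0.56 (adjusted p = 0.0024), all 3 of the 20 called as deposited (3 higher and 1 lower after scaling), where 14.3% of all genes were called higher. Late, Mpc2 rose by 0.79 (adjusted p = 0.00094), Mpc1 by 0.77 (adjusted p = 0.0035) and Pck2 by 0.54 (adjusted p = 0.0055), again 3 of 20 higher and 0 lower as deposited (3 and 1 after scaling), and 3 without late control female 1, where 8.82% of all genes were called higher. Late in resolution 2 of 23 transcription regulators were called, both lower, Foxa3 at -0.63 and Cebpb at -0.38 (4 lower after scaling). Glycolysis control had 1 higher and 1 lower of 13 (Txnip 1.30, Pfkfb2 -0.61), and insulin signalling 1 higher and 1 lower of 22 (Akt1 0.35, Gsk3b -0.41), or 1 and 4 after scaling.

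By sex label at peak the counts turned with the scaling, as did those of all genes, of which 4.26% were called higher and 46.7% lower as deposited, and 16.2% and 15.4% after scaling. Transcription regulators had 1 of 23 higher and 11 lower as deposited, and 2 higher and 4 lower after scaling. Insulin signalling had 3 of 22 higher and 14 lower as deposited, and 5 and 5 after scaling, and glycolysis enzymes 0 higher and 1 lower of 17, and 7 higher and 1 lower. The aspartate aminotransferase Got1 was higher in males by 1.39 as deposited and by 1.75 after scaling, and the glucose 6-phosphate carrier Slc37a4 by 0.60 and 0.95. By sex label at the early stage Pcx, pyruvate carboxylase, was higher in males by 0.49 (adjusted p = 0.038) and Sds, serine dehydratase, was lower, at -1.10 (adjusted p = 0.038), where 0.374% of all genes were called higher and 0.222% lower. At the late stage the insulin signalling list had Igfbp1 higher, at 2.11 ± 0.49 (adjusted p = 0.02), and Trib3 lower, at -0.87 (adjusted p = 0.024), where 0.783% of all genes were called lower; after scaling 5 of the 22 were higher and 1 lower. Both kept their calls without late control female 1, at 2.18 and -0.83.

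**Figure D4:**
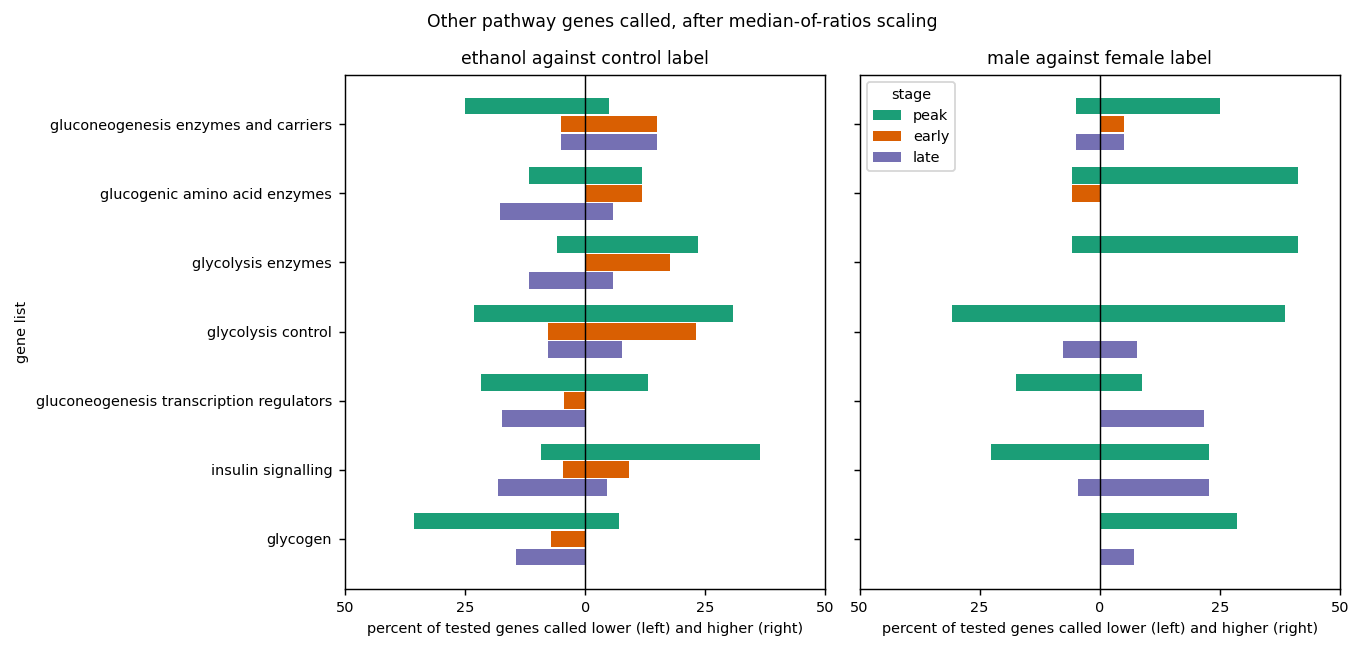
Percent of the tested genes of each of the 7 pathway lists called lower (bars to the left of 0) and higher (bars to the right), after median-of-ratios scaling, by diet label (left panel, ethanol against control) and sex label (right panel, male against female), with stages in colour. Of 22 insulin signalling genes, 8 were called higher and 2 lower by diet label at peak, and 5 higher and 5 lower by sex label at peak.

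Other markers moved with the same comparisons, and their part in these results was not tested. At peak all 6 endothelial markers were higher in ethanol libraries, with sums of 73.9 to 242 TPM against 46.7 to 179 TPM in control libraries, beside the 4 members called. So were 5 of 7 stellate markers, with sums of 74.2 to 257 TPM against 33.0 to 110 TPM in control libraries. By diet label at peak 17.3% of all genes were called higher. By sex label at peak, beside Pck1 and G6pc, 4 of 6 periportal markers, Pck1 itself among them, were lower and 1 higher in males (2 and 1 after median-of-ratios scaling). Their sums, which include Pck1, were 3810.1 to 6670 TPM in males against 5696 to 8649 TPM in females. Of 7 pericentral markers 5 were lower and 0 higher in males (4 and 1 after scaling). Their sums were 10438 to 14664 TPM in males against 11162 to 16460 TPM in females. Over all genes 46.7% were called lower and 4.26% higher by sex label at peak, and 15.4% and 16.2% after scaling. At peak 3 of 3 tested neutrophil markers were higher in males, with sums of 28.3 to 148 TPM, against 3.87 to 65.1 TPM in females, beside Pfkfb3. Late, the 6 periportal hepatocyte markers, which include Pck1 itself, summed to 5300.1 to 8228 TPM in males, against 3253 to 5752 TPM in females, with 1 of 6, Pck1, called. By sex label late 2.46% of all genes were called higher. The hepatocyte list, led by Alb, summed to 174003 to 200664 TPM in late ethanol libraries, against 100758 to 179276 TPM in late control libraries, beside Tat and Pfkfb3. Its members went both ways, since Alb (0.63) and Apoa1 (0.53) were called higher and Apob (-0.68) lower, of 7 tested, and 2 were called higher and 2 lower without late control female 1, or 1 higher and 2 lower after scaling. Beside the same calls, 3 of 6 Kupffer and macrophage markers were higher in late ethanol libraries (5 without late control female 1), with sums of 317 to 522 TPM against 134 to 549.6 TPM in control libraries. All 3 tested T and NK markers were higher, with sums of 3.11 to 9.98 TPM against 0.968 to 5.88 TPM in control libraries, and all 3 tested B cell markers, with sums of 4.32 to 37.2 TPM against 0.937 to 4.74 TPM in control libraries. By diet label late 8.82% of all genes were called higher and 3.98% lower. Peak counts without peak ethanol female 1 were 3 of the 9 by diet label, G6pc being lost (-0.75, adjusted p = 0.057), and 3 by sex label. With every library kept, 27.1% and 51% of all genes were called in these comparisons. The shares without that library are not given.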

How the data were processed

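The data were 45 bulk RNA-seq libraries of liver lysate in 12 groups of stage, diet label and sex label. Per the labels' protocols, RNA isolation used a spin column and library preparation a stranded mRNA kit; per the submitters' processing notes the build was mm10. For the aligner, counter and strand setting, nothing is given in the sources used here. A single table of TPM values was deposited by the authors; the unit was checked on its columns, since each sums to between 999999 and 1000001; sequencing depth and counts are not in it. Of 24972 entries, 26 with date-like or repeated names were left out. With R 4.3.3 and limma 3.58.1, log2(TPM + 0.5) was fitted for 11244 genes whose mean reached 0.5 TPM (99.93% of the TPM) with 1 mean per group (33 residual degrees of freedom) and moderated with a variance trend. Calls are at a Benjamini-Hochberg adjusted p under 0.05 over all genes tested. The script was tested on simulated data. Other settings were another pseudocount, another filter, median-of-ratios or quantile scaling, no trend, array weights, the stages compared alone, the replicate number as a block, and each library left out in turn. Replicate numbers did not pair the ethanol and control libraries of both sex labels at any stage; they did in peak females, where the block changed no call given. Correlations used permutations within groups. The plot of differences gives all 9 genes in every label comparison, and the text those called or moved by a setting; also named are, for each of 7 pathway lists up to 3 called genes with the smallest p per label comparison, and for each gene the 3 genes most like it. Members and lists were chosen with earlier results of these data known. Gene positions are from GENCODE M21 and promoters from RefSeq on GRCm38.p6, the assembly of mm10; RefSeq and GENCODE starts differ for some genes. Figures were drawn with Python 3.11.15 and matplotlib 3.10.9.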

Additional observations from a re-analysis of the deposited data

Results flagged for a closer look

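In 81 sets of 4 libraries (the 9 genes in each group of 4), 3 held a library that stood apart from the other 3 of its group by Dixon's gap criterion, which chance meets in about 1 in 20 groups. Pck1 was at 2243 TPM in early control female 1, below the others of that group. Pfkfb3 was at 3.25 TPM in peak ethanol female 4, above 2.65, 2.66 and 2.75 TPM in the other peak ethanol females. Pfkfb3 was at 38.8 TPM in late control female 4, above 4.01, 6.25 and 8.0 TPM in the other late control females.

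A difference between groups in the effect of a label was called for 9 results. For the late sex by diet interaction it was G6pc, at 3.05. For the change of the diet-label difference from peak to late it was Fbp1, at -0.56, and Tat, at -1.47. For the change of the sex-label difference from peak to early it was Fbp1, at 0.38, and Pfkfb3, at -1.82. For the change of the sex-label difference from peak to late it was Pck1, at 1.72, G6pc, at 2.02, Tat, at 1.01, and Foxo1, at 0.63.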

How the results depend on the processing

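Counts of members called are given here under each other setting. Shares of all genes are given for median-of-ratios scaling only, so a count under another setting may have moved with all genes. With array weights, whose estimation stopped before converging, the counts were 3 for the diet label early, 5 for it late, 2 for the sex label early, 2 for the interaction at peak and 2 for it late, 1 for the change of the diet difference from peak to early and 7 for the change of the sex difference from peak to late. With median-of-ratios scaling they were 5 for the diet label late (21.1% of all genes) and 7 for the level late against peak (17.7%). With that scaling they were 1 and 2 for the change of the sex difference from peak to early and to late (16.5% and 20.2%). With no filter they were 0 for the sex label early and 2 for the change of the sex difference from peak to late. With quantile normalization they were 1 for the diet label early, 4 for it late, 0 for the sex label early and 1 for the change of the sex difference from peak to early. With the stages compared alone they were 0 for the sex label early, 2 for it late and 0 for the late interaction. With the replicate block (15 to 21 residual degrees of freedom) they were 1 for the diet label early, 0 for the late interaction, 0 for the change of the diet difference from peak to late, 0 for the sex label early and 1 for the change of the sex difference from peak to early. The late G6pc interaction with the block was 3.27 (adjusted p = 0.1). Libraries sharing a number deviated together in peak females, where all 4 pairs had r of 0.11 to 0.22 and correlated best with their own number, and in 3 of 4 pairs of early males (-0.05 to 0.25). They did not in peak males (-0.21 to -0.07), early females (-0.37 to -0.07), late males (-0.08 to -0.02) or late females (-0.37 to -0.01). Within peak females the block, an alternative added after seeing the data, left Fbp1 at 0.62 (adjusted p = 0.011) and Pfkfb3 at -1.73 (adjusted p = 0.0014). Within late males Irs2 with the block was 1.23 (adjusted p = 0.077). Leaving out 1 library gave 0 to 1 for the diet label early, the sex label early and the late interaction, 2 to 5 for the sex label late, 0 to 3 and 1 to 3 for the change of the diet difference to late and of the sex difference to early, 2 to 4 for the change of the sex difference to late and 2 to 6 for the level early. The other counts stayed within 1.5 times. Foxo1 by sex label at peak, not called as deposited, was 0.33 (adjusted p = 0.025) after quantile normalization, the opposite sign. Depth is unknown, so genes near 1 TPM are the least certain.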
